A study of Mus musculus with 6 samples.

Results

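Immunoglobulin genes were followed in kidneys 14 days after unilateral ischemia-reperfusion injury (UIRI), with and without Bruceine A (BA). The members were every gene whose symbol begins with Igh (without Ighmbp2), Igk, or Igl followed by v, c or j, together with Jchain and Mzb1, and 40 of the 19176 rows of the expression table met this rule. They comprised 11 constant genes, 25 variable segments, 2 joining segments and the partner genes Jchain and Mzb1. The rule used names and no threshold on values, but earlier results of these data were known when it was set. The mouse annotation (GENCODE M21, GRCm38) holds 395 genes under the same rule, and all 40 members were found in it by symbol.

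RNA was sequenced from renal cortical tissue of wild-type male C57BL/6J mice aged 8 weeks, with 3 libraries per group. In every mouse the left renal pedicle had been clamped and released, and the right kidney had been removed the day before collection. The UIRI group received vehicle, and the UIRI + BA group received 1 mg/kg BA daily by intraperitoneal injection until collection on day 14. BA is a quassinoid from Brucea javanica, and the sample labels spell it Brucine A. No uninjured kidney is compared here, so the values say nothing of what the injury itself did to these genes. The study calls the libraries of each group independent biological replicates.

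The libraries held 16510720 to 38124164 reads on genes, and UIRI replicate 3 was the deepest by far, the other 5 lying at or below 20313529. The deposited values are normalized counts, that is reads divided by a scaling factor for each library, and 100% of them could be turned back into whole reads. All 10 proximal tubule markers were higher in the UIRI + BA group at an unadjusted p below 0.05 (median log2 fold change 0.75), and their summed normalized count was 30608 to 47518 in the UIRI group against 52639 to 61634 in the UIRI + BA group. Of the 9 urothelial markers, Krt20 was higher at that threshold and 8 had a negative fold change that did not reach it (median -1.55), with sums of 1263 to 1613 against 1244 to 1875. Adipose markers were not analysed here. The part of such shifts in tissue make-up in the results below was not tested.

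An antibody is built from a pair of heavy and a pair of light chains. The variable end of each chain is assembled in a developing B cell by joining one variable segment to a joining segment (and, in heavy chains, a diversity segment), so that a B cell and its descendants share the same segments. The constant gene sets the class. Naive B cells make IgM and IgD from Ighm and Ighd, and class switching replaces Ighm with an Ighg, Igha or Ighe gene. Plasma cells carry very large amounts of these transcripts. Jchain links IgM and IgA into polymers, and Mzb1 is a chaperone of the endoplasmic reticulum that helps assemble IgM. C57BL/6 mice carry Ighg2c where many other strains carry Ighg2a.

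The constant genes were led by Ighm, whose share of all heavy constant reads was 79.1% to 88.8% in the 6 libraries. IgG was a small part of the heavy constant reads, and its sum was the one constant sum in which the groups did not overlap. The summed normalized count of the 4 IgG genes was 51.0, 22.5 and 65.2 in the UIRI libraries. It was 145, 107 and 129 in the UIRI + BA libraries, a ratio of group means of 2.75 with no overlap between the groups. Among the 4 genes only Ighg2c kept the groups apart by itself, as did 7.45% of all rows in that direction. For Ighg1, Ighg2b and Ighg3, UIRI replicate 3 had 26.8, 30.7 and 1.10 and UIRI + BA replicate 3 had 12.5, 18.8 and 6.26. The sum of those genes without Ighg2c therefore overlapped between the groups. Over all 7 heavy constant genes the sums were 2808, 2476 and 2152 against 1944, 2831 and 1563, and the groups overlapped. In bulk tissue, fewer cells of a type and less RNA per cell cannot be told apart.

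No member passed the test at an adjusted p below 0.05. The test was limma on log2(normalized count + 1) over all 19176 rows, of which 0% passed, and the lowest adjusted p of a member was 0.225. At an unadjusted p below 0.05, 3 of the 40 members were higher with BA (Ighg2b, Ighg2c and Ighv6-6) beside 5.67% of all rows, and 3 were lower (Ighv7-3, Igkv5-43 and Igkv6-23) beside 4.61% of all rows. The groups did not overlap for 2 members that were higher, Ighg2c and Ighv6-6 (7.45% of all rows), and for 3 that were lower, Ighv7-3, Igkv5-43 and Igkv6-23 (6.96% of all rows). The median log2 fold change was -0.07 over the 40 members, -0.22 over the constant genes, 0.00 over the variable segments and -0.01 over all rows. Read against these backgrounds, the counts of 2 or 3 among 40 members do not set them apart from the table. The count of adjusted calls depended on the tool and on one library. DESeq2 on the recovered reads gave 1 member, Ighg2c, among 213 genes. edgeR's quasi-likelihood test gave 0. Without UIRI replicate 3, limma gave 4 members (Igha, Ighg2b, Ighg2c and Igkv5-43) beside 5.02% of all rows.

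**Figure D1:**
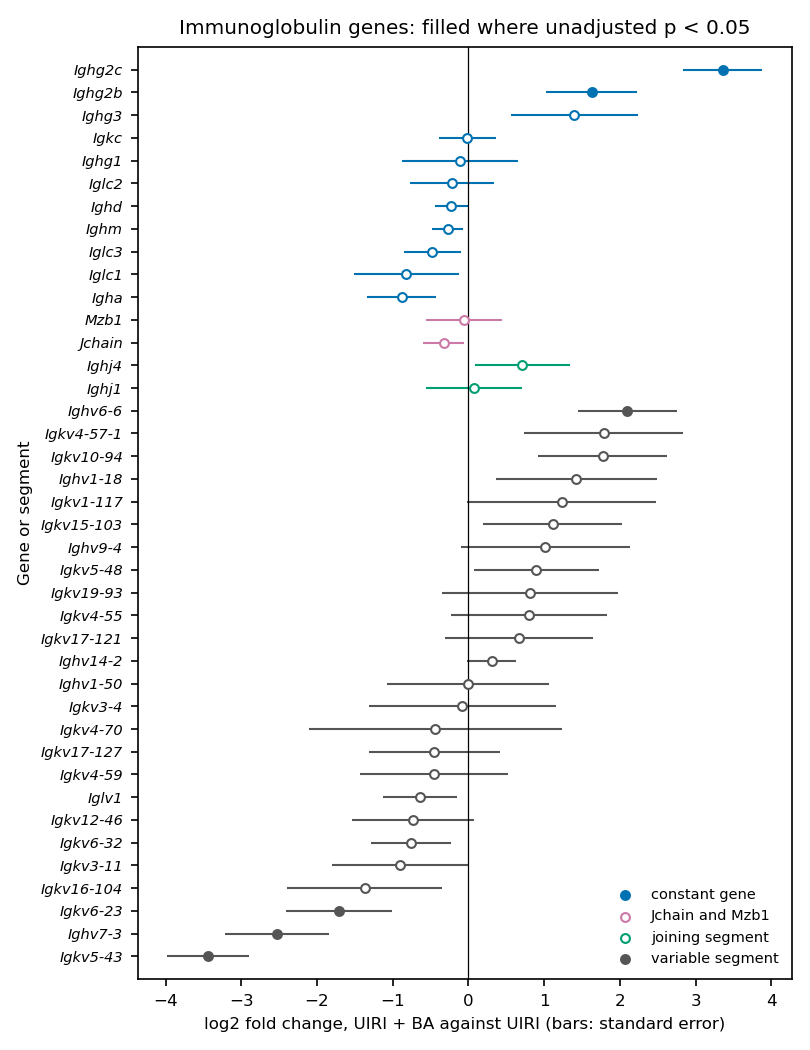
Log2 fold change (UIRI + BA against UIRI, on the log2(normalized count + 1) scale) of each of the 40 members on the x axis, one gene or segment per line, with bars for the standard error and colors for the class. Filled points have an unadjusted p below 0.05, and none has an adjusted p below 0.05. Ighg2c stands at 3.36 and Igkv5-43 at -3.43, while Ighm, Igkc and Jchain lie between -0.33 and -0.01.

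Among the IgG genes, Ighg2c differed most. Its normalized count was 2.27, 2.25 and 6.57 in the UIRI libraries and 30.1, 29.1 and 91.8 in the UIRI + BA libraries. Each UIRI + BA library was above each UIRI library, though the UIRI values rest on 2, 2 and 12 reads against 24, 27 and 88. The group means were 3.70 ± 2.49 and 50.3 ± 35.9 (SD, n = 3), a ratio of 13.6, and the log2 fold change was 3.36 (SE 0.52, limma adjusted p = 0.225). Pooling the reads of each group gave a ratio of 11.6 with a 95% counting interval of 6.92 to 20.9, which covers counting error only and not the spread between mice. A call on Ighg2c therefore turned on the model: DESeq2 gave an adjusted p of 2.88e-05, limma with the replicate number as a block 0.033, limma without UIRI replicate 3 0.0102 and edgeR 0.251, and over all alternatives the adjusted p ran from 2.88e-05 to 1.00.

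Ighg2b, the other gene of this pair, had a normalized count of 5.66, 7.87 and 30.7 in the UIRI libraries and 51.4, 52.8 and 18.8 in the UIRI + BA libraries. UIRI replicate 3 was above UIRI + BA replicate 3, so the groups overlapped. Its log2 fold change was 1.63 (SE 0.60, unadjusted p = 0.024, limma adjusted p = 0.440), and the adjusted p was 0.0308 without UIRI replicate 3. The unadjusted p rose above 0.05 with edgeR (0.0593) and without UIRI replicate 1 (0.0835), UIRI replicate 2 (0.0719), UIRI + BA replicate 1 (0.0865) or UIRI + BA replicate 2 (0.0747), all from fits across all genes.

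Ighg3 had a normalized count of 11.3, 10.1 and 1.10 in the UIRI libraries and 51.4, 12.9 and 6.26 in the UIRI + BA libraries. Only UIRI + BA replicate 1 was clearly high, and the log2 fold change of 1.40 (SE 0.84, limma adjusted p = 0.574) did not pass. Ighg1 had 31.7, 2.25 and 26.8 in the UIRI libraries and 12.5, 11.8 and 12.5 in the UIRI + BA libraries, with a log2 fold change of -0.11 (SE 0.76, limma adjusted p = 0.965). The UIRI + BA libraries were alike for Ighg1 and the UIRI libraries were not.

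The hinge exons of these genes are shown because the IgG genes are counted separately here although their sequences are related, and the hinge is a short stretch in which they can be told apart. They are exon 2 of each gene in GENCODE M21 (GRCm38, minus strand of chromosome 12) and lie at chr12:113329844-113329882 for Ighg1, chr12:113307261-113307326 for Ighg2b, chr12:113288263-113288325 for Ighg2c and chr12:113360529-113360576 for Ighg3. Positions are tied to the files by symbol only. Capitals mark the in-frame codons of cysteine, the residues that link the heavy chains.
Ighg1: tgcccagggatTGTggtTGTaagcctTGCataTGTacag
Ighg2b: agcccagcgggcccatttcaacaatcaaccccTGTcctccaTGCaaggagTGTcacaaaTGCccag
Ighg2c: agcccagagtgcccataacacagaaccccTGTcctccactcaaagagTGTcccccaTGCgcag
Ighg3: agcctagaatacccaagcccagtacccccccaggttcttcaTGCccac
The hinge exons are 39, 66, 63 and 48 bases long in that order. They hold 4, 4, 3 and 1 such cysteine codons. Over the whole coding sequence Ighg2b and Ighg2c were 85.6% identical, the closest pair, and the other pairs 74.4% to 76.4%. No stretch of 150 bases, the length of 1 read, was shared between any constant gene and another annotated immunoglobulin gene.

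Per kb of exon the order of the IgG genes differed between the groups. The mean level was 7.82 normalized counts per kb for Ighg1, 5.50 for Ighg2b, 2.99 for Ighg3 and 2.79 for Ighg2c in the UIRI group. It was 37.95 for Ighg2c, 15.3 for Ighg2b, 9.36 for Ighg3 and 4.75 for Ighg1 in the UIRI + BA group. Neighbours in the UIRI order overlapped between libraries. In the UIRI + BA group every library's Ighg2c level, 21.9 or more, was above the highest Ighg2b level of 19.7. The other neighbours overlapped. That separation rests on the exon lengths, 1326 bases for Ighg2c and 2678 for Ighg2b, whose coding sequences are 1004 and 1007 bases. In normalized counts, Ighg2b was above Ighg2c in UIRI + BA replicates 1 (51.4 against 30.1) and 2 (52.8 against 29.1). In UIRI + BA replicate 3 it was below (18.8 against 91.8).

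**Figure D2:**
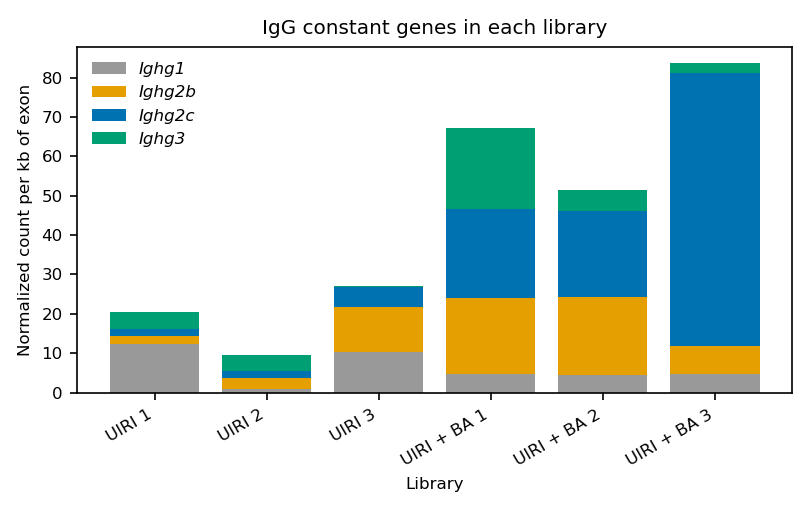
Normalized count per kb of exon (y axis) of the 4 IgG constant genes, stacked, in each of the 6 libraries (x axis). The stacks reach 20.6, 9.53 and 27.2 in the UIRI libraries and 67.1, 51.3 and 83.6 in the UIRI + BA libraries, and Ighg2c makes up most of UIRI + BA replicate 3.

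IgG took 1.82%, 0.909% and 3.03% of the heavy constant reads in the UIRI libraries and 7.47%, 3.77% and 8.28% in the UIRI + BA libraries. The groups did not overlap, but the nearest libraries, UIRI replicate 3 (95% Wilson interval 2.54% to 3.61%) and UIRI + BA replicate 2 (3.10% to 4.56%), had overlapping intervals. Ighg2c itself made up 4.44%, 10% and 10.1% of the IgG reads in the UIRI libraries and 20.7%, 27.3% and 71.0% in the UIRI + BA libraries, whereas Ighg1 made up 62.2%, 10% and 41.2% against 8.62%, 11.1% and 9.68%. The shares in UIRI replicate 2 rest on 20 IgG reads, and the nearest libraries for Ighg2c, UIRI replicate 3 (5.86% to 16.8%) and UIRI + BA replicate 1 (14.3% to 28.9%), had overlapping intervals.

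The log2 ratio of Ighm to the IgG sum differed by -1.86 with BA, and that of Igha to the IgG sum by -2.47. Both ratios kept the groups apart, with an exact two-sided permutation p of 0.1 each, the lowest that 3 against 3 libraries allow, and 0.25 after adjustment over the 5 ratios examined. Both ratios and the IgG share above use the same IgG sum, so they are not separate results. Without Ighg2c that sum overlapped between the groups, and the ratios without Ighg2c were not tested. The log2 ratio of Ighm to Ighd, the pair made by naive B cells, differed by -0.05 (exact permutation p = 1).

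Ighm had a normalized count of 2236, 2067 and 1910 in the UIRI libraries and 1537, 2503 and 1299 in the UIRI + BA libraries. UIRI + BA replicate 2 was the highest of all 6 and the other treated libraries were the lowest (log2 fold change -0.27, SE 0.20, limma adjusted p = 0.642). Ighd, spliced from the same long transcript as Ighm, had 69.1, 84.4 and 56.4 against 57.6, 71.1 and 50.1, with overlapping groups.

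Igha, the IgA constant gene of mucosal antibody, had a normalized count of 452, 301 and 120 in the UIRI libraries and 204, 151 and 84.5 in the UIRI + BA libraries. The mean was 291 ± 166 against 146 ± 59.95 (SD, n = 3), and the groups overlapped through UIRI replicate 3. The log2 fold change was -0.88 (SE 0.46, limma adjusted p = 0.536), and no alternative but one passed. Without UIRI replicate 3, the deepest library, it was -1.42 with an adjusted p of 0.0412, whereas it was -0.47 without UIRI replicate 1 (limma adjusted p = 1.00) and -0.53 without UIRI + BA replicate 3 (limma adjusted p = 0.749).

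Of the light chain constant genes, Igkc, the kappa constant gene, had a normalized count of 420, 313 and 430 in the UIRI libraries and 322, 766 and 223 in the UIRI + BA libraries. UIRI + BA replicates 2 and 3 were the extremes of all 6, and the log2 fold change was -0.01 (SE 0.37, limma adjusted p = 0.992), with a sign that changed between tools. Kappa accounted for 85.4% to 93.4% of light constant reads. The lambda genes Iglc1, Iglc2 and Iglc3 were low, with library values of 3.13 to 35.1, and none passed the test. Their lowest Iglc1 and Iglc2 values were in UIRI + BA replicate 3. Iglc2 and Iglc3 were 96.2% identical over their coding sequence but shared no stretch of 150 bases, and whether reads were split between them was not tested. The log2 ratio of Igkc to the lambda sum differed by 0.44 (exact permutation p = 0.4).

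Jchain had a normalized count of 276, 234 and 170 in the UIRI libraries and 209, 230 and 115 in the UIRI + BA libraries (log2 fold change -0.33, SE 0.27, limma adjusted p = 0.674). Mzb1 had 4.53, 16.9 and 9.86 against 10.02, 12.9 and 5.22 (log2 fold change -0.06, SE 0.50, limma adjusted p = 0.973). Both partner genes overlapped between the groups. UIRI + BA replicate 3 was the lowest library for Ighm, Ighd, Igha, Igkc, Iglc1, Iglc2 and Jchain and the highest for Ighg2c.

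**Figure D3:**
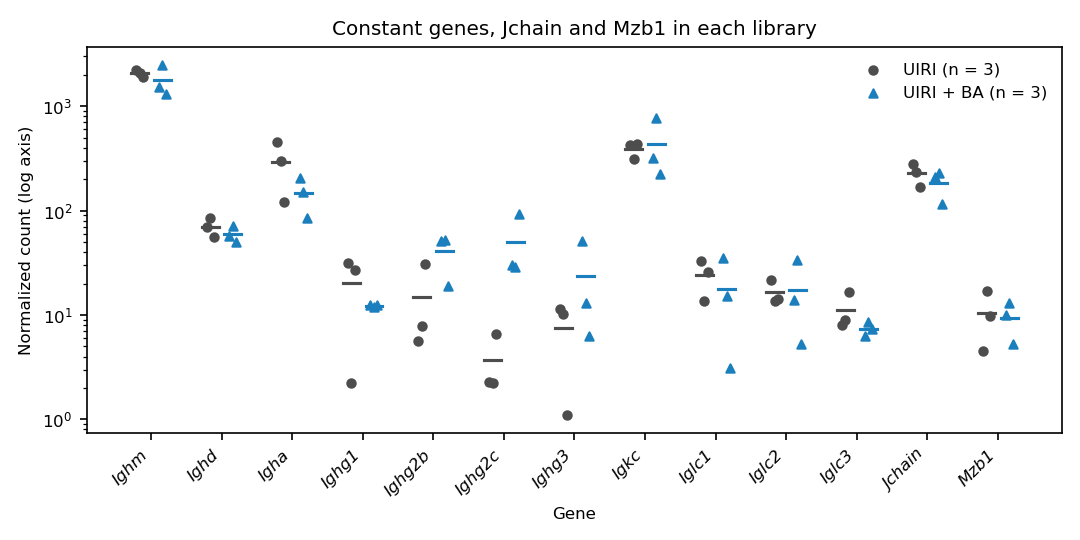
Normalized count (y axis, log scale) of the 11 constant genes, Jchain and Mzb1 (x axis), with one point per library and a line at the group mean (n = 3 per group). The groups overlap for every gene shown except Ighg2c, where the UIRI + BA points lie between 29.1 and 91.8 and the UIRI points between 2.25 and 6.57.

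Most variable segments had over 50% of their summed normalized count in a single library, and most constant genes did not. Of the 11 constant genes 2 (18.2%) did, Ighg2c (56.7% in UIRI + BA replicate 3) and Ighg3 (55.2% in UIRI + BA replicate 1). The table holds 25 of 346 annotated variable segments, 6 of 183 heavy, 18 of 160 kappa and 1 of 3 lambda. Of these, 20 (80%) had over 50% of their summed normalized count in 1 library, against 0.375% of all rows and 1.13% of the 4056 other rows whose means lie in the same range. Likewise 18 segments (72%) were at 0 in at least 1 library, against 3.65% of those rows, and a count of 0 allows a normalized count of up to 1.64 in UIRI replicate 3 and up to 3.13 to 3.76 in the other libraries (3 reads). The table's lowest row total is 10 reads, so a segment could enter it through 1 library alone, as Igkv3-11, a pseudogene, did with 10 reads, all in UIRI replicate 3. In that library, the deepest, 1 read equals a normalized count of 0.548, against 1.04 to 1.25 in the others. A segment could thus enter through it at a lower normalized count, and the part of depth in the counts per library was not tested. The libraries that held over 50% of a segment were UIRI replicate 3 for 6 segments, UIRI + BA replicate 2 for 5, replicate 1 for 4 and replicate 3 for 3, and UIRI replicate 1 for 2. Among these segments Ighv6-6 (54.9% in 1 library), Ighv7-3 (50.9%) and Igkv6-23 (63.2%) nevertheless did not overlap between the groups.

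**Figure D4:**
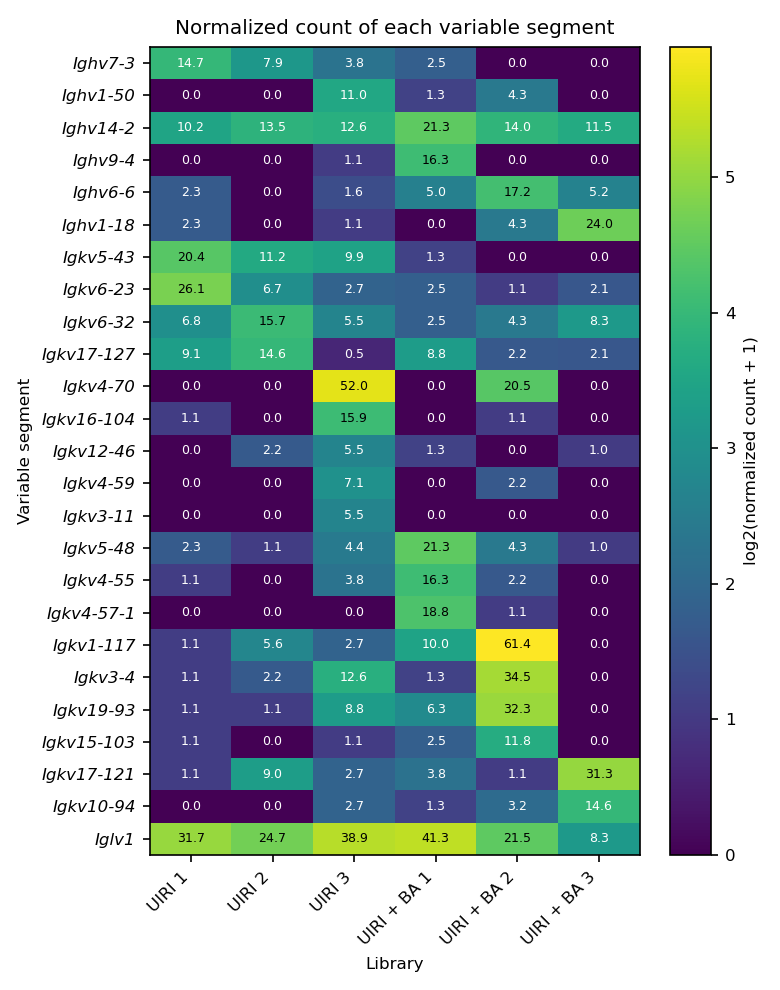
Normalized count of the 25 variable segments (y axis) in each of the 6 libraries (x axis), printed in each cell and colored on a log2(normalized count + 1) scale, with heavy segments first, then kappa, then lambda. Most segments are bright in 1 column only, such as Igkv1-117 at 61.4 in UIRI + BA replicate 2, while Iglv1 and Ighv14-2 have reads in all 6.

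Reads in all 6 libraries were found for 7 segments, and the most abundant of these were Iglv1 and Ighv14-2. Iglv1 had a normalized count of 31.7, 24.7 and 38.9 in the UIRI libraries and 41.3, 21.5 and 8.35 in the UIRI + BA libraries. Ighv14-2 had 10.2, 13.5 and 12.6 against 21.3, 14.0 and 11.5. Neither passed the test and both overlapped between groups (limma adjusted p = 0.650 and 0.740).

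Other abundant kappa segments were high in 1 or 2 libraries. Igkv4-70 had a normalized count of 52.0 in UIRI replicate 3 and 20.5 in UIRI + BA replicate 2 and was at 0 in the other 4 libraries. Igkv1-117 reached 61.4 in UIRI + BA replicate 2, where Igkv3-4 (34.5) and Igkv19-93 (32.3) were also highest, and all 3 were at 0 in UIRI + BA replicate 3. That library was instead led by Igkv17-121 at 31.3, with 51.7% of its kappa variable reads (95% Wilson interval 39.2% to 64.1%), and by the heavy segment Ighv1-18 at 24.0. Ighv9-4 had 16.3 in UIRI + BA replicate 1, 1.10 in UIRI replicate 3 and no reads elsewhere. UIRI + BA replicate 3, which had the highest Ighg2c, thus also had a heavy and a kappa segment, Ighv1-18 and Igkv17-121, whose counts elsewhere were at most 4.31 and 9.0.

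The leading kappa segment was a different one in each library: Igkv6-23, Igkv6-32 and Igkv4-70 in UIRI replicates 1 to 3, and Igkv5-48, Igkv1-117 and Igkv17-121 in UIRI + BA replicates 1 to 3. The lead over the next segment was narrow in UIRI replicates 1 (23 reads against 18) and 2 (14 against 13) and UIRI + BA replicate 1 (17 against 15). It was wider in UIRI replicate 3 (95 against 29) and UIRI + BA replicates 2 (57 against 32) and 3 (30 against 14). The effective number of variable segments, the count of equally used segments that would give the same evenness, was 7.31, 8.95 and 8.77 in the UIRI libraries and 9.60, 8.09 and 6.05 in the UIRI + BA libraries. The mean was 8.34 ± 0.90 against 7.91 ± 1.78 (SD, n = 3), a difference within the spread of either group. It rests on 103 to 390 variable reads per library.

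The summed normalized count of the 6 heavy variable segments was 29.5, 21.4 and 31.2 in the UIRI libraries and 46.4, 39.8 and 40.7 in the UIRI + BA libraries. The groups did not overlap, and the ratio of means was 1.55, but the sum rests on few reads and on how segments entered the table. Ighv1-18 (4 reads in the UIRI group against 27), Ighv6-6 (5 against 25) and Ighv9-4 (2 against 13) reached its lowest row total of 10 only with UIRI + BA reads. They were highest in UIRI + BA replicates 3, 2 and 1 in that order. Ighv7-3 (27 against 2) and Ighv1-50 (20 against 5) went the other way. The sum of the 18 kappa segments was 72.5, 69.7 and 143 against 97.7, 183 and 60.5, with wide overlap. Over all 40 members the sum was 3710, 3203 and 3048 against 2742, 4154 and 2046, a ratio of 0.898, and UIRI + BA replicate 2 was highest and replicate 3 lowest.

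For 4 variable segments the unadjusted p was below 0.05, each on few reads. Each reached the table's lowest row total of 10 reads through the group in which it was higher, as the other group held at most 5. Their entry into the table was thus not independent of the difference, and the p-values and intervals below do not allow for that. Igkv5-43 had 18, 10 and 18 reads in the UIRI libraries and 1, 0 and 0 in the UIRI + BA libraries, or normalized counts of 20.4, 11.2 and 9.86 against 1.25, 0 and 0. Its log2 fold change was -3.43 (SE 0.54, limma adjusted p = 0.225), and the pooled read ratio of UIRI to UIRI + BA was 34.3 with a counting interval of 5.86 to 1385. It was the segment that differed most and was found in all 3 UIRI libraries, but 19.1% of its 150-base stretches also occur in another immunoglobulin gene, and its nearest copy, Igkv5-45, is 98.6% identical. Without UIRI replicate 3 its adjusted p was 0.0218.

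Ighv7-3 had 13, 7 and 7 reads against 2, 0 and 0, with a log2 fold change of -2.53 (SE 0.69, limma adjusted p = 0.309) and a pooled ratio of UIRI to UIRI + BA of 10.1 (counting interval 2.53 to 87.4). Igkv6-23 had a normalized count of 26.1, 6.75 and 2.74 against 2.51, 1.08 and 2.09, with a log2 fold change of -1.71 (SE 0.70, limma adjusted p = 0.467). UIRI replicate 1 alone carried 63.2% of its total, and without it the fold change was -0.93 with an unadjusted limma p of 0.170. Its unadjusted p also rose above 0.05 with quantile normalization (0.128) and without each other library except UIRI replicate 3 (0.0547 to 0.0925). Ighv6-6, the one segment that was higher, had 2.27, 0 and 1.64 against 5.01, 17.2 and 5.22, with a log2 fold change of 2.10 (SE 0.66, limma adjusted p = 0.368) on 5 reads against 25. Without UIRI + BA replicate 2 its unadjusted limma p was 0.0561.

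The ends of these 4 variable exons are shown because these segments separated the groups, and because this stretch enters the third loop that contacts antigen. Whether these bases also occur in other segments was not tested. They are the last 60 bases of exon 2 in GENCODE M21 (GRCm38, minus strand), at chr12:114434788-114434847 for Ighv6-6, chr12:114153180-114153239 for Ighv7-3, chr6:69823355-69823414 for Igkv5-43 and chr6:70260409-70260468 for Igkv6-23. Capitals mark the last in-frame cysteine codon of the segment. The few bases after it still belong to the segment, and the joint lies at the segment's end.
Ighv6-6: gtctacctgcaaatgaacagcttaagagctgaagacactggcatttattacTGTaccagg
Ighv7-3: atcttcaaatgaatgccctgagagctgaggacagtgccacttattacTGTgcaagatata
Igkv5-43: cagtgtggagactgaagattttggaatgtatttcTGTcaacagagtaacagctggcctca
Igkv6-23: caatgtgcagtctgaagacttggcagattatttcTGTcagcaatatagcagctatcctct
Across the 24 variable segments that could be compared with others of their locus, the nearest copy was 73.4% to 98.6% identical, with a median of 94.7%. Of the 25 segments, 2 (Igkv3-11 and Igkv5-43) share a stretch of 150 bases with another immunoglobulin gene, so reads could be split there.

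The 2 joining segments, Ighj1 and Ighj4, are given with their sequences because they are short enough to be shown whole. Both lie on the minus strand of chromosome 12 (GRCm38), at chr12:113429781-113429833 and chr12:113428514-113428567. Capitals mark TGGGGN, the codons of the tryptophan and glycine with which the joined end closes.
Ighj1: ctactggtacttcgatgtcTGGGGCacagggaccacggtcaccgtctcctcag
Ighj4: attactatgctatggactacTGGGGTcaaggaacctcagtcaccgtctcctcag
Ighj1 had a normalized count of 1.08 to 7.30 and Ighj4 of 1.13 to 10.8, and neither separated the groups (log2 fold change 0.07, SE 0.63, and 0.71, SE 0.62).

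Among the 12 B cell markers, 1 was lower with BA at an unadjusted p below 0.05 and none was higher. That gene was Cd22, an inhibitory receptor of B cells, at 196, 160 and 137 normalized counts against 110, 136 and 114. The summed count of the list was 1169 to 1374 in the UIRI group and 1058 to 1265 in the UIRI + BA group. Cd79a, a chain of the B cell receptor complex, and Ms4a1, which encodes the surface protein CD20, were detected in every library at 8.35 to 31.2.

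Of the 11 plasma cell markers tested, 1 was higher, Creld2, a protein of the endoplasmic reticulum, with a log2 fold change of 0.25 (SE 0.09, limma adjusted p = 0.408). The summed count was 11316 to 11659 in the UIRI group and 11521 to 12161 in the UIRI + BA group. Pou2af1, a coactivator of immunoglobulin transcription, was at 9.06, 10.1 and 17.0 against 5.01, 35.5 and 6.26, and was highest in UIRI + BA replicate 2, as were Ighm and Igkc. Most genes of this list, among them Xbp1, Sdc1 and Txndc5, are also made by kidney epithelium and other cells. Tnfrsf17, Glycam1, Fdcsp and Fcer1a were not analysed here.

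Of 15 genes of B cell receptor signaling, 1 was lower at an unadjusted p below 0.05 (Pik3ap1, an adaptor, log2 fold change -0.27, SE 0.11) and none was higher. Fold changes were negative for 14 of the 15, with a median of -0.08. Of 11 survival and niche factors, Cxcl13, the chemokine that draws B cells into follicles, was higher at 15.9, 15.7 and 15.3 against 28.8, 25.8 and 20.9 normalized counts, with no overlap (log2 fold change 0.64, SE 0.25, limma adjusted p = 0.450). Tnfsf13b, the B cell survival factor BAFF, had a log2 fold change of -0.24 (SE 0.10, limma adjusted p = 0.479). Cxcl13 also belongs to the 7 tested lymph node and germinal center markers and was the only one of them to reach an unadjusted p below 0.05.

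None of the 13 receptors and carriers of immunoglobulin reached that threshold, and Pigr, which carries polymeric IgA across epithelium, had a log2 fold change of -0.11 (SE 0.13). Of 10 genes of the classical complement pathway only C3 did, at 17262, 19166 and 17139 against 26577, 30809 and 23775 (log2 fold change 0.59, SE 0.11, limma adjusted p = 0.225). Of 7 genes of recombination and the surrogate light chain, Vpreb3 was lower, at 7.93, 14.6 and 7.67 against 5.01, 2.15 and 3.13 normalized counts (log2 fold change -1.32, SE 0.44, limma adjusted p = 0.397). Rag1, Rag2 and Igll1 were not analysed here.

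No T cell marker of 10 and no red blood cell marker of 6 reached an unadjusted p below 0.05. The macrophage marker Mrc1 (1 of 10) and the dendritic cell markers Ccr7 and Siglech (2 of 8) were lower at that threshold, beside 4.61% of all rows. No gene of these lists was higher at it. Fold changes were negative for all 10 macrophage markers (median -0.26) and all 8 dendritic cell markers (median -0.23), beside 9793 of all 19176 rows. They were also negative for 8 of 10 T cell and 4 of 6 red blood cell markers. Summed macrophage counts were 89204 to 128375 against 85667 to 98839, and dendritic cell counts 5028 to 6708 against 4687 to 5888. The summed T cell count was 2084 to 2708 in the UIRI group and 1746 to 3013 in the UIRI + BA group, with UIRI + BA replicate 2 highest and replicate 3 lowest, the same extremes as for Ighm and Igkc.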

How the data were processed

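The authors extracted RNA from renal cortical tissue, enriched mRNA with oligo(dT) beads, sequenced paired reads of 150 bases, aligned them with HISAT2 and counted them with FeatureCounts. The genome build and annotation release are not given in the sources used here. Reads that cross a rearranged joint are not contiguous in a genome and may be lost, and reads of near-identical segments may be dropped or misplaced. The table that the authors deposited holds a signal per gene, which its values show to be the read count divided by a size factor of its library. The labels and the methods name different RNA extraction kits. Columns of the authors' own comparison and the enrichment tables were not used.

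Whole reads were recovered from the deposited values (tolerance 0.1 read, 100% of values). limma 3.58.1 in R 4.3.3 was fitted with a variance trend to log2(value + 1) of all 19176 rows with no filter, two-sided, with Benjamini-Hochberg adjustment. Folds are on that scale and understate changes of low genes. Ratios were tested by exact permutation over libraries, and sums, shares and segment use were not tested. Intervals are 95%, Wilson for shares and exact for ratios of pooled reads. The members and all lists were chosen with earlier results of these data known. Named were all constant genes, Jchain, Mzb1, the 5 most abundant heavy and 5 most abundant kappa segments, the only lambda segment tested (the rule allowed 3), segments with a mean of at least 5 and an unadjusted p below 0.05, and up to 4 genes a list by lowest p or, failing that, highest level. The joining segments, Igkv3-11, Igkv5-48, Igkv6-32, Cd79a, Ms4a1, Pou2af1, Pigr, Xbp1, Sdc1 and Txndc5 were named after their values were seen. Alternatives were another pseudocount, a filter on low means, quantile and upper quartile scaling, scaling to reads on genes, DESeq2 1.42.0 and edgeR 4.0.16 on recovered reads, a replicate block, and leaving out each library. In simulated data with 200 changed genes the limma step was checked. The changes were placed only in genes with means above those of all variable segments (at most 27.8), so the check does not cover low members. Sequences and exon lengths come from GENCODE M21 (GRCm38).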

Additional observations from a re-analysis of the deposited data

How the results depend on the processing

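Members higher with BA at an unadjusted p below 0.05 numbered 3 in the limma fit, 5 with DESeq2, 1 with edgeR, 5 with the replicate block and 1 to 9 when a library was left out (1 without UIRI + BA replicate 2, 9 without UIRI + BA replicate 3). Those lower numbered 3, 0 with edgeR, whose filter kept 13 of the 40 members, and 2 to 5 without a library (5 without UIRI replicate 3). Rows of the whole table at that p, in either direction, numbered 1971 of 19176 with limma, 1511 with DESeq2, 1703 of 17155 with edgeR, 2106 with the block, 808 without UIRI replicate 1 and 4838 without UIRI replicate 3, 1612 without UIRI + BA replicate 3 and 1860 without UIRI + BA replicate 2. Members at an adjusted p below 0.05 numbered 0, 1 with DESeq2 (Ighg2c, with 31 members given no adjusted p), 1 with the replicate block (Ighg2c) and 0 to 4 without a library (4 without UIRI replicate 3). The same replicate numbers did not pair the libraries (correlations of deviations -0.24, 0.304 and 0.155). The log2 fold change of Igkc was 0.17 with DESeq2 and 0.17 with edgeR, that of Iglc2 0.10 and 0.12, and that of Igkv3-4 1.14 with DESeq2, each of opposite sign to limma, and the cause was not tested. Leaving out 1 library also changed the sign of the log2 fold change of Ighg1 (-1.18 to 0.48), Ighv9-4 (-0.36 to 1.70), Igkc (-0.52 to 0.37), Igkv1-117 (-0.18 to 2.81), Igkv17-121 (-0.45 to 1.53), Igkv19-93 (-0.39 to 2.14), Igkv3-4 (-1.60 to 0.97), Igkv4-70 (-1.91 to 1.48), Iglc1 (-1.53 to 0.030), Iglc2 (-0.83 to 0.40) and Mzb1 (-0.50 to 0.35), and of the difference in the log2 ratio of Ighm to Ighd (-0.19 to 0.042). For Ighg2c the fold change stayed between 2.82 and 3.76, and the log2 ratio of group means of the IgG sum between 1.13 and 1.79. The log2 ratio of group means changed sign without 1 library for the sums of light constant genes (-0.51 to 0.45), kappa segments (-0.27 to 0.68), all variable segments (-0.07 to 0.53) and all members (-0.47 to 0.05), as did the difference in the effective number of segments (-1.27 to 0.50), all within the spread between libraries. Over the alternatives, 279 values of single fold changes kept their direction and side of the threshold, 15 from DESeq2 kept their direction but had no adjusted p, 25 changed sign and 6 newly passed the threshold. The variable segments had 103 to 390 reads per library in all, which limits what can be seen of a single one.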
